A study of Mus musculus with 15 samples.

Results

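The 41 genes described here carry fatty acids into the muscle fibre, store them, bring them into mitochondria and oxidise them. They were taken as a list of symbols, matched to the gene identifiers of the deposited tables, and all 41 were found among the 55416 genes listed. The list and its roles were chosen with earlier results of these data known. Its counts, set beside those of all genes, therefore describe the list and do not test it. By role they comprise 7 uptake and activation genes, 9 genes of lipid droplets, lipolysis and triglyceride synthesis, 5 genes of the carnitine shuttle, 12 beta oxidation genes, 3 genes of the electron transfer flavoprotein system, 3 acyl-CoA thioesterases and 2 uncoupling proteins. RNA was sequenced from the tibialis anterior, a mostly fast muscle of the lower leg, of male C57BL/6 (C57BL/6NCrlOri) mice aged 6 to 8 weeks when the tumour cells were given. The IgG group (n = 4 libraries) carried tumours of KrasIKKaL cells, delivered into the lung through the windpipe, and received a rat IgG2b isotype antibody. The anti-PD-L1 group (n = 3) carried the same tumours and received an antibody against PD-L1, an immune checkpoint ligand, at 200 µg/kg. The anti-CD8a group (n = 3) carried the same tumours and received an antibody against CD8a, a surface protein of cytotoxic T cells, at a dose labelled as 200 µg with no body weight. The anti-PD-L1 and anti-CD8a antibodies went into the abdominal cavity 3 times a week, and the dose and schedule of the isotype antibody are not given. The control group (n = 5) had no tumour, and no antibody is named for it, so tumour and injected antibody change together between each tumour group and control. The study looked for treatment targets in tumour-related muscle wasting and in immune side effects on muscle. Nothing in the labels ties a library to a mouse of its own, so p-values measure the spread between libraries.

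Muscle takes fatty acids from lipoproteins and plasma through lipoprotein lipase and CD36, binds them to coenzyme A, and either stores them as triglyceride in droplets or sends them through the carnitine shuttle into the mitochondrial matrix. There, beta oxidation shortens the acyl chain in repeated cycles and passes electrons to the respiratory chain, in part through the electron transfer flavoprotein. Many of these genes are known targets of the PPAR nuclear receptors, and thioesterases release free fatty acid from coenzyme A again.

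Library totals ran from 15894804 to 22459348 rounded counts, and levels below are CPM, read counts relative to library size, after TMM, a normalization that balances the bulk of genes between libraries. The 8 skeletal muscle markers summed to at least 71731 CPM in each IgG library, 59470 in each anti-PD-L1 library, 88199 in each anti-CD8a library and 79891 in each control library. Mitochondrially encoded genes took between 12.8% and 16.7% of counts in IgG, between 11.1% and 14.4% in anti-PD-L1, between 20.2% and 23.1% in anti-CD8a and between 17.6% and 23.0% in control, and their part in the results was not tested. The 6 slow fibre markers, among them Myh7, the slow myosin heavy chain, summed to 1367, 1345, 2960 and 7329 CPM in IgG, 2516, 806 and 250.01 in anti-PD-L1, 4698, 7676 and 629 in anti-CD8a, and 522, 3352, 842, 269.5 and 390.4 in control. The ranges of the 4 groups overlapped. Of the 41 fatty acid genes, 17, 16, 33 and 31 lay above all 5 control libraries in IgG libraries 1 to 4, 17, 25 and 15 in anti-PD-L1 libraries 1 to 3, and 15, 32 and 19 in anti-CD8a libraries 1 to 3, where the same share of all genes was 35.9% to 38.3%, 34.2% to 37.8% and 21.8% to 24.3% by group. IgG 3, IgG 4 and anti-CD8a 2 therefore stood apart from the other libraries of their groups in these genes, and counts without IgG 3 and IgG 4 are given beside the results they touch. IgG 3 and IgG 4 were picked after seeing their high values in these genes, and anti-CD8a 2 was kept. Leaving out IgG 3 and IgG 4 therefore lowers IgG in most of these genes by choice. Those counts show only how far a result rests on the pair.

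Compared as TPM, the share of all transcripts after correction for length, the cytosolic fatty acid binding protein gene Fabp3 was the most abundant of the 41 in each group, at 1459 ± 1019 TPM in IgG, 761 ± 103 in anti-PD-L1, 1326 ± 572 in anti-CD8a and 714 ± 152 in control (mean ± SD). Pnpla2, which encodes adipose triglyceride lipase, ranked 2 of 41 in IgG with 523 ± 98.5 TPM and 2 in anti-PD-L1 with 385 ± 163, but 15 in anti-CD8a with 103 ± 28.2 and 11 in control with 100.1 ± 22.3. Acsf2, a medium-chain acyl-CoA synthetase, was the least abundant in each group, at 3.78 ± 4.10 TPM in IgG, 1.09 ± 0.347 in anti-PD-L1, 0.75 ± 0.161 in anti-CD8a and 0.66 ± 0.246 in control. The TPM of the 12 beta oxidation genes summed to between 1129 and 2091 in IgG, 1264 and 1484 in anti-PD-L1, 1253 and 1577 in anti-CD8a, and 821 and 1052 in control. The 9 droplet genes summed to between 809.5 and 1092 TPM in IgG, 589 and 1059 in anti-PD-L1, 254 and 339.7 in anti-CD8a, and 197 and 343 in control. TPM divides by all counts including the mitochondrial share, which differed between groups. The order of genes within a group is therefore read from it here, and the sums above are not read as differences between groups. Groups were tested on TPM only in 1 alternative.

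**Figure D1:**
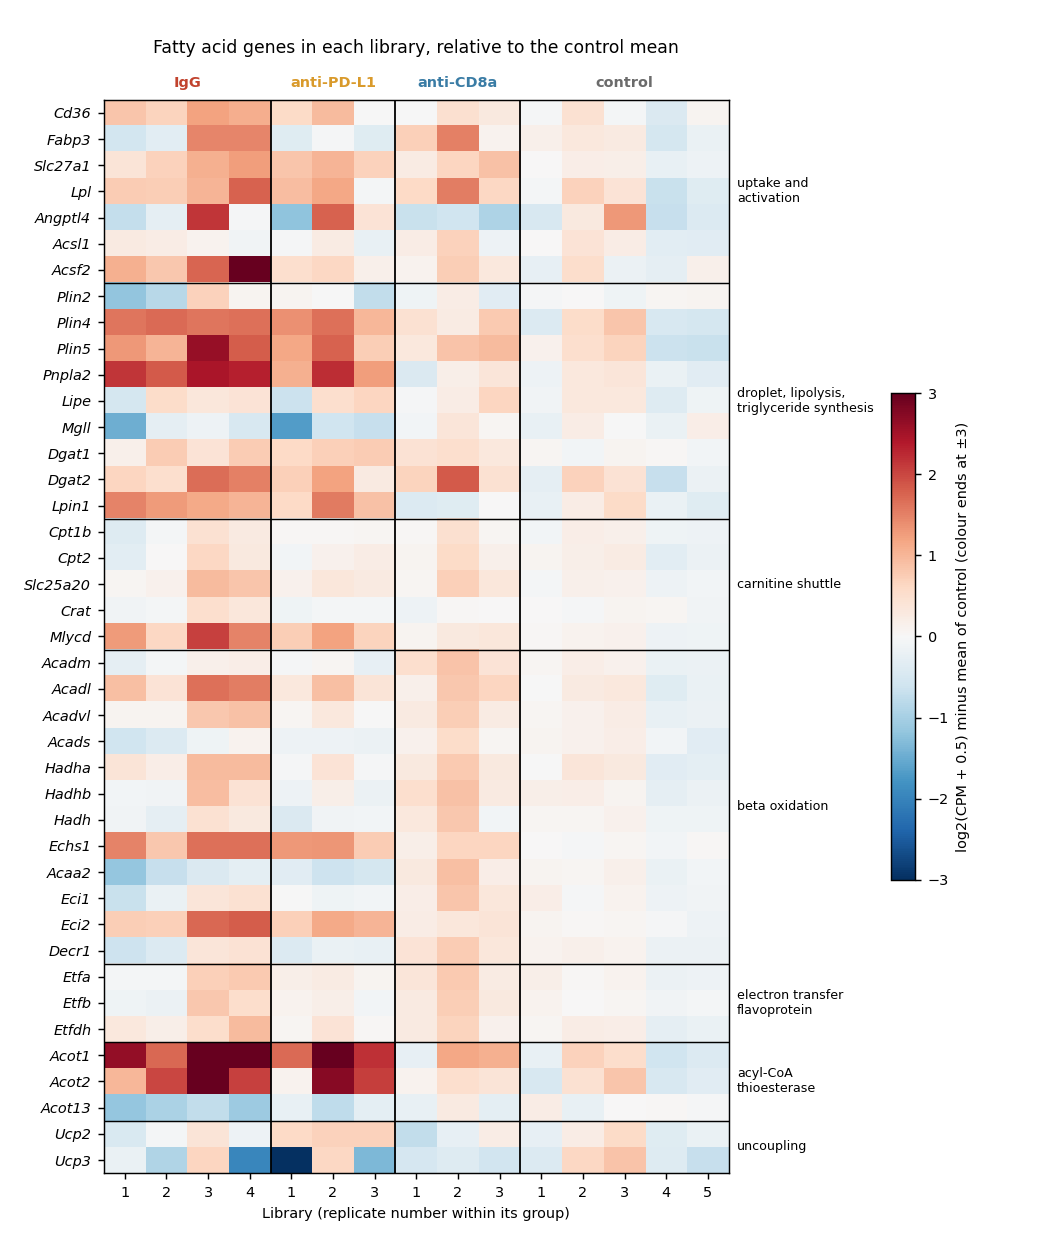
Each of the 41 genes (rows, by role) in each of the 15 libraries (columns, by group), coloured by log2(CPM + 0.5) minus the control mean, with the colour ending at 3 either way. The rows of Plin4, Plin5, Pnpla2, Dgat1, Dgat2, Lpin1, Acot1 and Acot2 are mostly red across IgG and anti-PD-L1. Cells near white there include Dgat1 in IgG 1, Dgat2 in anti-PD-L1 3 and Acot2 in anti-PD-L1 1. Mgll and Acot13 are blue or near white there, with Mgll near white in IgG 3. Most beta oxidation rows are red mainly in IgG 3, IgG 4 and anti-CD8a 2.

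IgG against control asks what the tumour with isotype antibody did to these genes. Among the 41, 20 rose, 6 of them among the 9 droplet genes and 4 among the 7 uptake genes, with the largest rises in the thioesterase Acot1 (28.4-fold), Acsf2 (5.40-fold), Acot2 (4.76-fold) and Pnpla2 (4.54-fold), while the thiolase Acaa2 and the thioesterase Acot13 fell. In edgeR's quasi-likelihood test across 14372 genes, with a call at a Benjamini-Hochberg adjusted p under 0.05, 20 of the 41 were higher in IgG and 2 were lower, against 30.2% higher and 28.4% lower over all genes tested. The median log2 fold change of the 41 was 0.51, against -0.02 over all genes. By role, 6 of 9 droplet genes, 4 of 7 uptake genes, 2 of 5 shuttle genes, 5 of 12 beta oxidation genes, 1 of 3 flavoprotein genes and 2 of 3 thioesterases were called higher, and 1 beta oxidation gene and 1 thioesterase lower. Without IgG 3 and IgG 4 the counts were 14 higher and 5 lower (3799 and 3057 over all genes), and the median log2 fold change was 0.08. Other cell type markers moved in the same comparison: 5 of 6 fibroblast markers were called lower (median log2 fold change of the 6, -3.21) and 8 of 9 macrophage markers were called lower and 1 higher (median -1.23), and their part was not tested. Under upper-quartile scaling, which moved the median of all genes by -0.25, the counts of the 41 were 15 higher and 4 lower (3239 and 5526 over all genes). As these are bulk samples, fewer cells of a type and less RNA per cell cannot be told apart.

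The promoters of 6 members are shown, 3 for the largest rises and 3 as examples of the PPAR element, which is known for this pathway. Acot1, Acot2 and Acsf2 had the largest rises in IgG against control, and the windows of the called Acot13 and Acaa2 are not shown. Cd36, Echs1 and Ucp3 were chosen after values were seen, as 3 of the 6 members whose windows hold a PPAR-like element. The windows run from 250 bases before to 50 bases after the start of the gene in the RefSeq tables of build GRCm38.p6, 5′ to 3′ on the strand of the gene. Capitals mark the hexamer AGGTCA, on either strand, and the PPAR element, the direct repeat AGGTCANAGGTCA found with up to 2 mismatches.
Acot1 (chr12:84009252-84009551, plus strand): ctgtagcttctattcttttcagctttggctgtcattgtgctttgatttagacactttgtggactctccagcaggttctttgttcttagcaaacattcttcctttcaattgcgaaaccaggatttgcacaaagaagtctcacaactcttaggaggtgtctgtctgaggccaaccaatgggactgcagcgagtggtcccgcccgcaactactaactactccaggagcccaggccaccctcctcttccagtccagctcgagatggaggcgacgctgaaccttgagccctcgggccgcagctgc
Acot2 (chr12:83987611-83987910, plus strand): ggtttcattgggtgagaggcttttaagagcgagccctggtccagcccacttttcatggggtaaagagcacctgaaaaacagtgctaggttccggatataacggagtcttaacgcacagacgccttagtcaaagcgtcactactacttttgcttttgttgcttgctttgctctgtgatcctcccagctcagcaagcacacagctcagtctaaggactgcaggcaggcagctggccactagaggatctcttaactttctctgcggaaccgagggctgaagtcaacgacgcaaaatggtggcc
Acsf2 (chr11:94601737-94602036, minus strand): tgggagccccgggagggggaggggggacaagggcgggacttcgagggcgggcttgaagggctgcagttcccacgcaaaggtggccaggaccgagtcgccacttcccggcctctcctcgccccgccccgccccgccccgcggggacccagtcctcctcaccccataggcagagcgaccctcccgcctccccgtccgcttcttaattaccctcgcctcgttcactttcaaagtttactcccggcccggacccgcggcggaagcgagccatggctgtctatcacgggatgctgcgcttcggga
Cd36 (chr5:17835847-17836146, minus strand): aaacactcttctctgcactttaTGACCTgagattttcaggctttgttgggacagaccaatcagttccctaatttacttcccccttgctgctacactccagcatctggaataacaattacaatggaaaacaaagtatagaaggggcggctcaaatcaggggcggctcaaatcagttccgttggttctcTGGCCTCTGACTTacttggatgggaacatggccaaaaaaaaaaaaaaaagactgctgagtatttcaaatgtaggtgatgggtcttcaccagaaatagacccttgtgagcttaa
Echs1 (chr7:140116372-140116671, minus strand): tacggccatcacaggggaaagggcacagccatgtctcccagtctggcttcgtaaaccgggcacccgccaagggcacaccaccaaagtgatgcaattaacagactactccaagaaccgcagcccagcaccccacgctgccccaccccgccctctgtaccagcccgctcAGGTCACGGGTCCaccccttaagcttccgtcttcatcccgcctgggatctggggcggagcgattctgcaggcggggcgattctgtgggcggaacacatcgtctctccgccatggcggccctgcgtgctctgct
Ucp3 (chr7:100472741-100473040, plus strand): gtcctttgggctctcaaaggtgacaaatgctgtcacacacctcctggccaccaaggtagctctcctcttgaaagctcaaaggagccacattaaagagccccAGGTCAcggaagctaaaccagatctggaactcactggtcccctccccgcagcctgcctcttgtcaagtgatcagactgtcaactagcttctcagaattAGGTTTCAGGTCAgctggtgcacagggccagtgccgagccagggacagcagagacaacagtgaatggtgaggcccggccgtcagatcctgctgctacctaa

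No window among the 38 of the 32 members in the tables held the PPAR element exactly or with 1 mismatch. With 2 mismatches allowed, 6 of the 38 windows (15.8%) held it, against 3.86% of all 32851 promoters, and the members were Cd36, Echs1, Etfa, Plin2, Slc25a20 and Ucp3. Searching both strands, AGGTCA alone was in 23.7% of member windows and 16.3% of all promoters, the FoxO element GTAAACA in 5.26% and 3.65%, and the E box CACGTG in 10.5% and 7.15%; the PPAR element overlaps AGGTCA by construction. The windows of Acot1, Acot2 and Acsf2 held none of these letters. Of the 6 members with the element, Cd36, Echs1 and Slc25a20 were called higher in IgG than in control, and Etfa, Plin2 and Ucp3 were not called. A match describes letters in a window and does not show binding. Acot1 and Acot2 stand next to each other on chromosome 12, followed by Acot4, Acot3, Acot5 and Acot6. Their windows aligned with 44.5% identical columns, while the longest open reading frames of their longest transcripts, 1260 and 1362 bases, aligned with 85.5%.

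Among uptake and activation genes, those for release and entry of fatty acids rose. Cd36, the membrane fatty acid translocase, had 595, 532, 781 and 715 CPM in IgG, 504, 652 and 334 in anti-PD-L1, 334, 469.6 and 411 in anti-CD8a, and 328, 460.4, 321, 250.3 and 355 in control. All IgG libraries lay above every control library, and anti-PD-L1 and anti-CD8a overlapped control (log2 fold change 0.94 ± 0.20 SE, adjusted p = 0.000987, for IgG against control). Lpl encodes lipoprotein lipase, which frees fatty acids from triglyceride-rich lipoproteins, and it had 1062, 1045, 1276 and 2142 CPM in IgG, 1194, 1401 and 607 in anti-PD-L1, 950.5, 1822 and 961 in anti-CD8a, and 600.1, 1007, 841, 393 and 491 in control. The lowest IgG library was still above the highest control library, with IgG 4 the highest of all 15 (log2 fold change 1.05 ± 0.32 SE, adjusted p = 0.0102), but the call was lost without IgG 4. Slc27a1, a fatty acid transport protein with acyl-CoA synthetase activity, rose by 0.88 ± 0.17 (log2, SE) and Acsf2 by 2.43 ± 0.47 (log2, SE). Acsf2 was low throughout, with 4.03, 3.31, 6.81 and 23.3 CPM in IgG, 2.57, 2.83 and 1.94 in anti-PD-L1, 1.85, 3.11 and 2.23 in anti-CD8a, and 1.35, 2.65, 1.44, 1.298 and 1.92 in control. IgG 4 alone was far above the rest, and the other 3 IgG libraries still exceeded all control libraries. Fabp3 had 328, 385, 1334 and 1337 CPM in IgG, 373, 468 and 371 in anti-PD-L1, 793, 1372 and 519 in anti-CD8a, and 532, 601, 579, 335 and 417 in control. IgG 3 and 4 were above all control libraries and IgG 1 and 2 were below the control median, so the groups overlapped and no call was made (log2 fold change 0.78 ± 0.38 SE, adjusted p = 0.0911). Acsl1, the main long-chain acyl-CoA synthetase of muscle, and Angptl4, a secreted inhibitor of lipoprotein lipase, were not called, with log2 fold changes of 0.11 and 0.61.

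Of the 9 droplet and lipolysis genes, 6 rose. Pnpla2, whose product takes the first fatty acid off stored triglyceride, had 803, 655, 985 and 920.3 CPM in IgG, 380.3, 845 and 433 in anti-PD-L1, 135, 204 and 235 in anti-CD8a, and 164, 227, 234, 158 and 142 in control. Every IgG and every anti-PD-L1 library was above every control library, and the anti-CD8a libraries overlapped control (log2 fold change 2.18 ± 0.24 SE, adjusted p = 3.57e-06). Plin4 and Plin5 encode perilipins, proteins of the droplet surface, of which Plin5 also binds adipose triglyceride lipase. Plin4 had 615, 665, 615 and 639 CPM in IgG, 526.1, 642 and 402 in anti-PD-L1, 278, 242 and 349 in anti-CD8a, and 154, 298, 364, 146 and 141 in control. The 4 IgG values were close together and above all others except anti-PD-L1 2 (log2 fold change 1.52 ± 0.26 SE, adjusted p = 0.000142). Plin5 had 38.4, 31.4, 96.2 and 54.8 CPM in IgG, 34.9, 52.9 and 25.7 in anti-PD-L1, 19.1, 28.0 and 30.1 in anti-CD8a, and 16.8, 21.9, 24.7, 9.52 and 9.45 in control. IgG did not overlap control, with IgG 3 highest (log2 fold change 1.75 ± 0.35 SE, adjusted p = 0.000481).

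Lpin1 encodes lipin 1, a phosphatidate phosphatase of triglyceride synthesis that also acts as a transcriptional coactivator, and had 1000.0, 862, 783 and 717 CPM in IgG, 540.2, 1047 and 658 in anti-PD-L1, 264.8, 274 and 356 in anti-CD8a, and 305, 411, 531, 306 and 275 in control. All IgG and anti-PD-L1 libraries exceeded all control libraries, whereas the anti-CD8a libraries overlapped the lower end of control (log2 fold change 1.20 ± 0.22 SE, adjusted p = 0.000227). Dgat1 and Dgat2, the 2 unrelated enzymes of the last step of triglyceride synthesis, rose by 0.58 ± 0.15 (log2, SE) and 1.099 ± 0.34 (log2, SE). The Dgat1 call was lost under upper-quartile scaling and the Dgat2 call without IgG 3. Lipe, hormone-sensitive lipase, Mgll, monoglyceride lipase, and Plin2, the general perilipin, were not called, with log2 fold changes of 0.23, -0.53 and -0.13. Plin2 differed within IgG, with 10.1, 12.9, 38.4 and 24.7 CPM against 21.4 to 24.7 in control, and was called lower (log2 fold change -1.03, edgeR adjusted p = 0.00221) without IgG 3 and IgG 4. Fat cell markers moved in some of the same libraries: Adipoq, the adiponectin gene, had 5.21, 19.98, 0.252 and 11.9 CPM in IgG, 3.003, 30.7 and 18.9 in anti-PD-L1, 4.79, 2.95 and 1.58 in anti-CD8a, and 4.32, 3.01, 4.08, 0.811 and 0.936 in control. None of the 6 fat cell markers tested was called between IgG and control, but 5 of 6 were above 0 with a median log2 fold change of 1.64, and 2 had an unadjusted p under 0.05. The sum of the 8 fat cell markers was 137, 295, 180.5 and 202 CPM in IgG and 160 to 225 in control, overlapping, and their part in the droplet results was not tested.

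**Figure D2:**
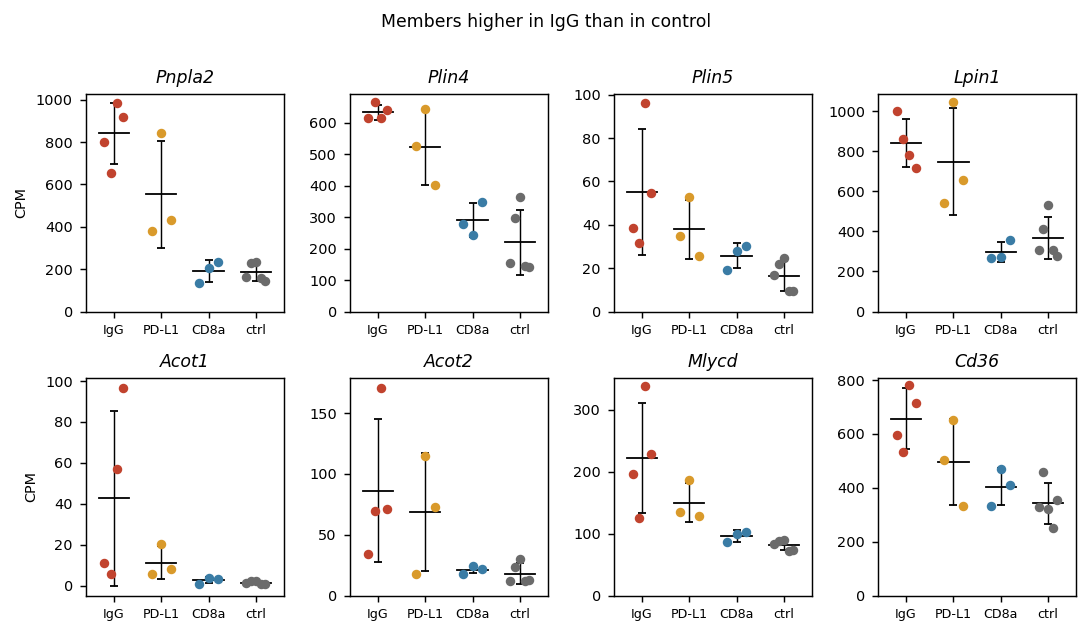
CPM of 8 members called higher in IgG than in control, 1 point per library for IgG, anti-PD-L1 (PD-L1), anti-CD8a (CD8a) and control (ctrl), with the group mean (line) and SD (bar); each axis starts at or below 0. For Pnpla2 the 4 IgG libraries sit between 655 and 985 CPM and the 5 control libraries between 142 and 234.

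Carnitine shuttle genes were split. Mlycd, malonyl-CoA decarboxylase, removes the inhibitor of carnitine palmitoyltransferase 1, and had 197, 126, 338 and 228 CPM in IgG, 135, 187 and 129 in anti-PD-L1, 86.2, 99.9 and 103 in anti-CD8a, and 82.9, 87.7, 89.5, 73.0 and 74.2 in control. All IgG and all anti-PD-L1 libraries were above all control libraries (log2 fold change 1.45 ± 0.21 SE, adjusted p = 3.25e-05). Slc25a20, the carnitine-acylcarnitine translocase of the inner membrane, rose by 0.54 ± 0.18 (log2, SE), with 138 and 128 CPM in IgG 3 and 4 and values inside the control range in IgG 1 and 2, and its call was lost without either IgG 3 or IgG 4. The transferases did not pass: Cpt1b, the muscle form that commits fatty acids to the mitochondrion, had 162, 201, 289 and 254 CPM in IgG, 215, 215 and 220.0 in anti-PD-L1, 214, 295 and 220.4 in anti-CD8a, and 199.7, 243, 235, 191 and 189.9 in control, a difference of log2 fold change 0.10 ± 0.16 SE, adjusted p = 0.618. Cpt2, its inner membrane partner, and Crat, carnitine acetyltransferase, had log2 fold changes of 0.18 and 0.20 and were not called.

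Within beta oxidation, individual enzymes of the same cycle differed in what they did. Echs1, the short-chain enoyl-CoA hydratase, had 179.6, 113, 203 and 201 CPM in IgG, 157, 159.7 and 108 in anti-PD-L1, 72.3, 101 and 100.4 in anti-CD8a, and 64.5, 62.0, 67.0, 60.04 and 65.9 in control. The control libraries were tightly grouped and all 10 tumour libraries lay above them, the anti-CD8a libraries least (log2 fold change 1.45 ± 0.17 SE, adjusted p = 5.76e-06). Eci2, an enoyl-CoA isomerase for unsaturated chains, had 73.7, 72.7, 148 and 157 CPM in IgG, 72.7, 98.05 and 90.2 in anti-PD-L1, 51.2, 56.0 and 57.5 in anti-CD8a, and 46.7, 45.6, 45.9, 42.7 and 39.9 in control. IgG 3 and 4 were the highest, and no IgG or anti-PD-L1 library reached down to control (log2 fold change 1.35 ± 0.20 SE, adjusted p = 4.65e-05). Acadl, long-chain acyl-CoA dehydrogenase, had 320.2, 228, 541 and 495 CPM in IgG, 214, 321 and 225 in anti-PD-L1, 189.7, 302 and 267 in anti-CD8a, and 171, 206, 213, 133 and 148 in control. IgG libraries lay above all control libraries and overlapped the anti-PD-L1 and anti-CD8a ranges (log2 fold change 1.18 ± 0.24 SE, adjusted p = 0.000536).

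Hadha, the alpha subunit of the mitochondrial trifunctional protein, and Acadvl, very long-chain acyl-CoA dehydrogenase, rose by 0.63 ± 0.20 (log2, SE) and 0.51 ± 0.18 (log2, SE), and both calls were lost without either IgG 3 or IgG 4, that of Acadvl also without control 4 or control 5. Acaa2, the thiolase that ends the cycle, went the other way with 45.2, 61.9, 74.9 and 82.6 CPM in IgG, 79.7, 65.2 and 69.6 in anti-PD-L1, 124, 190.5 and 116 in anti-CD8a, and 106, 105, 112, 88.3 and 95.6 in control. Every IgG library was below every control library, and every anti-CD8a library was above (log2 fold change -0.62 ± 0.18 SE, adjusted p = 0.00733). The other 6, namely Acadm and Acads for medium and short chains, Hadhb for the trifunctional beta subunit, Hadh for the short-chain dehydrogenase, Eci1 for the other isomerase and Decr1 for the dienoyl-CoA reductase, had log2 fold changes of -0.25 to 0.35 and were not called. Decr1 had 58.5, 68.0, 115 and 121 CPM in IgG, 67.8, 77.9 and 77.4 in anti-PD-L1, 119.7, 154 and 114 in anti-CD8a, and 96.2, 99.6, 96.5, 79.6 and 79.6 in control. IgG 1 and 2 were below all control libraries and IgG 3 and 4 above them, with a log2 fold change of 0.00 over all 4 and of -0.51 (edgeR adjusted p = 0.0174) without IgG 3 and IgG 4. Of the flavoprotein genes, Etfdh, the oxidoreductase that hands electrons to ubiquinone, rose by 0.51 ± 0.17 (log2, SE), a call lost without IgG 4, control 4 or control 5, and the subunit genes Etfa and Etfb were not called at 0.40 and 0.32.

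**Figure D3:**
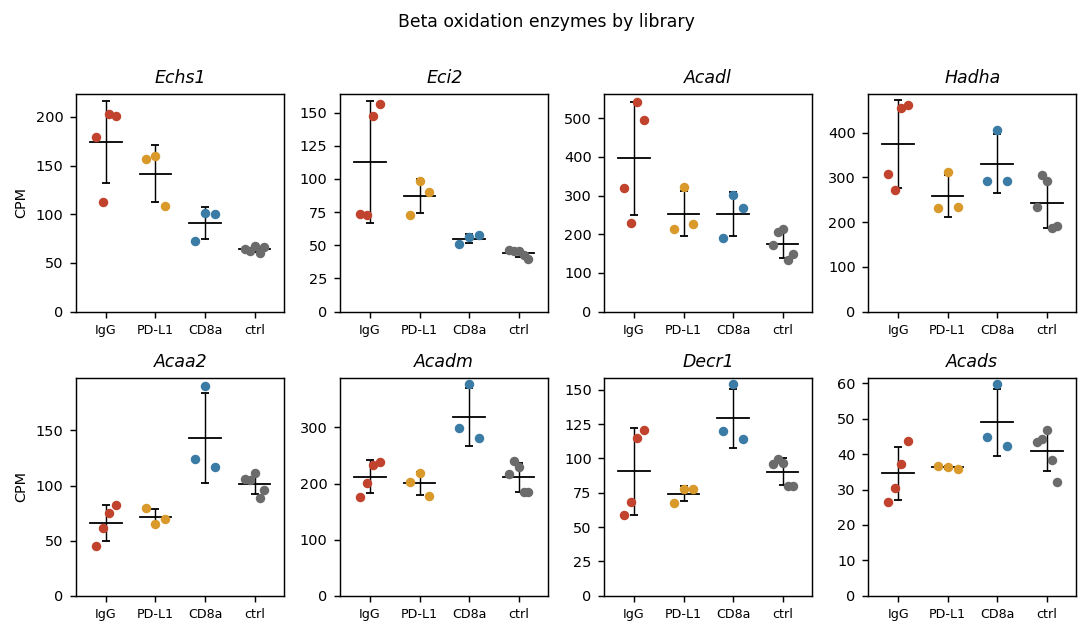
CPM of 8 beta oxidation enzymes, 1 point per library, for IgG, anti-PD-L1 (PD-L1), anti-CD8a (CD8a) and control (ctrl), with the group mean (line) and SD (bar); each axis starts at 0. Echs1, Eci2 and Acadl are higher in IgG than in control, Acaa2 is lower, and Acadm is highest in anti-CD8a, at 281 to 378 CPM.

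The thioesterases held both the largest rise and the largest fall of the 41. Acot1, the cytosolic long-chain acyl-CoA thioesterase, had 11.2, 5.72, 57.2 and 96.7 CPM in IgG, 5.62, 20.3 and 8.09 in anti-PD-L1, 1.09, 3.76 and 3.46 in anti-CD8a, and 1.12, 2.53, 2.24, 0.757 and 0.936 in control. All IgG libraries exceeded all control libraries, and IgG 3 and 4 were far above IgG 1 and 2 (log2 fold change 4.83 ± 0.74 SE, adjusted p = 5.17e-05); without IgG 3 and IgG 4 the log2 fold change was 2.50 (edgeR adjusted p = 0.00231). Acot2, its mitochondrial relative, had 34.4, 69.3, 171 and 71.1 CPM in IgG, 18.2, 115 and 72.9 in anti-PD-L1, 18.1, 24.2 and 22.3 in anti-CD8a, and 12.0, 23.4, 30.4, 11.9 and 13.2 in control. IgG was above control throughout, and anti-PD-L1 1 was inside the control range (log2 fold change 2.25 ± 0.48 SE, adjusted p = 0.000828). Reads shared between such close copies were divided by RSEM, the authors' counting program, and the Acot1 and Acot2 counts were not whole numbers in any of the 15 libraries, so the division between the pair is uncertain. Fabp3, Acadvl and Hadhb also had divided reads in all 15. Acot13, a thioesterase of another protein family found at mitochondria, had 31.5, 37.0, 42.5 and 33.2 CPM in IgG, 60.9, 41.7 and 58.6 in anti-PD-L1, 61.0, 86.3 and 58.2 in anti-CD8a, and 83.3, 61.1, 72.6, 73.2 and 69.4 in control. Every IgG library was below every control library, and so was every anti-PD-L1 library, the lowest of them inside the IgG range (log2 fold change -0.997 ± 0.16 SE, adjusted p = 6.2e-05). Ucp2 and Ucp3, inner membrane carriers of the uncoupling protein family, were not called (-0.08 and -0.46). Ucp3 varied widely within groups, with 186, 114, 333 and 55.1 CPM in IgG, 21.4, 329 and 83.6 in anti-PD-L1, 151, 164 and 143 in anti-CD8a, and 161, 329, 391, 163 and 134 in control.

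**Figure D4:**
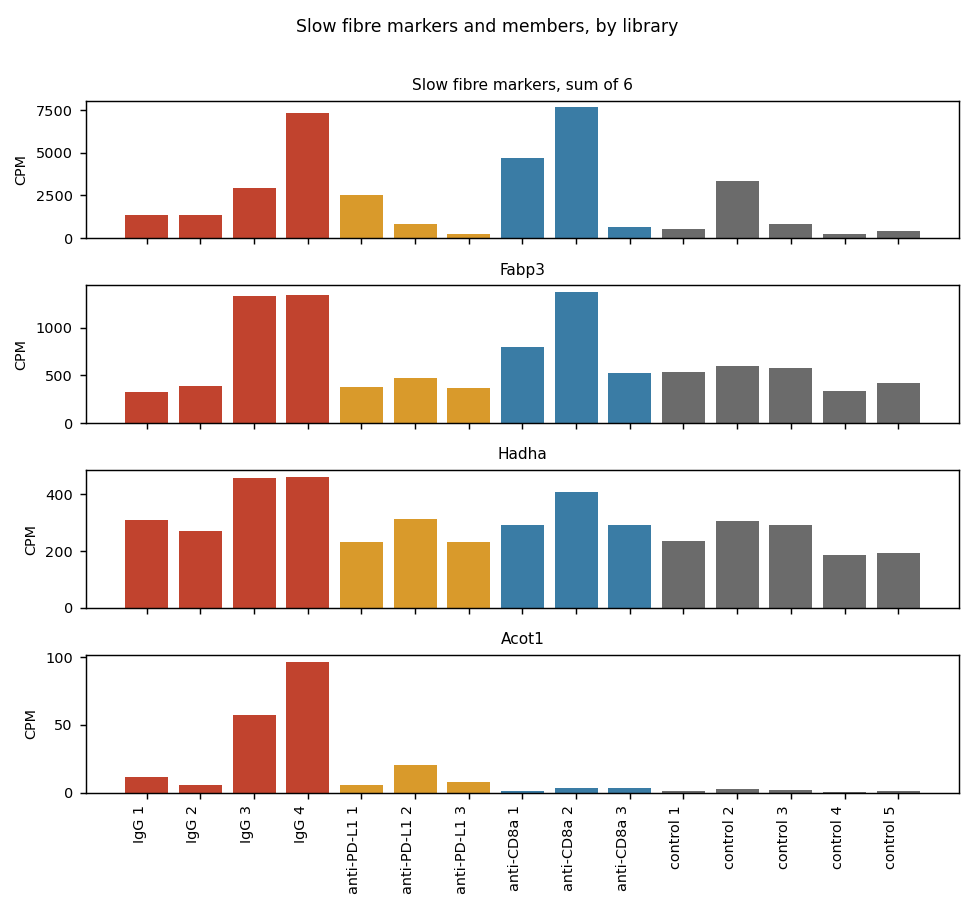
Bars give CPM in each of the 15 libraries (IgG red, anti-PD-L1 orange, anti-CD8a blue, control grey) for the summed 6 slow fibre markers and for Fabp3, Hadha and Acot1. The slow fibre sum is highest in anti-CD8a 2 (7676 CPM) and IgG 4 (7329 CPM), where Fabp3 has 1372 and 1337 CPM, while Acot1 is high in IgG 3 and 4 and low in all anti-CD8a libraries.

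Slow fibre markers varied among the same libraries. Their sum was high in IgG 4, anti-CD8a 1 and 2 and control 2, and Fabp3 had 1337 CPM in IgG 4, 793 and 1372 in anti-CD8a 1 and 2, and 601 in control 2, each the highest or next to highest of its group. In anti-PD-L1 1, which had the highest slow sum of its group at 2516 CPM, Fabp3 was 373 CPM, near the lowest of that group at 371. Hadha was the highest of its group in IgG 4 (462 CPM, with 456 in IgG 3), anti-CD8a 2 (407) and control 2 (306). In anti-CD8a 1 (292.6) it was nearly equal to anti-CD8a 3 (293.1), and in anti-PD-L1 1 (231) to anti-PD-L1 3 (233), the lower values of their groups. In IgG against control, all 6 markers had log2 fold changes above 0 with a median of 1.75, and Tnnc1, slow troponin C, was the 1 called. Acot1 was the highest of its group in IgG 4 (96.7 CPM), anti-CD8a 2 (3.76) and control 2 (2.53). It was the lowest of its group in anti-CD8a 1 (1.09) and anti-PD-L1 1 (5.62). The part of fibre type in the results was not tested.

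Anti-CD8a against IgG compares tumour muscles that differ in the antibody. Anti-CD8a muscles had less Acot1 (15.3-fold lower), Pnpla2 (4.40-fold), Acot2 (4.01-fold), Acsf2 (3.90-fold) and Lpin1 (2.82-fold), and more Acaa2 (2.17-fold) and Acot13 (1.90-fold). The counts were 4 higher and 11 lower of 41, against 23.2% higher and 24.8% lower of the 14372 genes tested, with a median log2 fold change of -0.14 in the 41 and 0.02 over all genes. The comparison shares the IgG libraries with the one against control, so a high IgG library moves both. The lower genes were Cd36 and Acsf2 in uptake, Plin4, Plin5, Pnpla2 and Lpin1 in droplets, Mlycd in the shuttle, Echs1 and Eci2 in beta oxidation, and Acot1 and Acot2. The higher ones were Acadm, Acads, Acaa2 and Acot13. Pnpla2 differed by log2 fold change -2.14 ± 0.29 SE, adjusted p = 5.95e-05, with the highest anti-CD8a library at 235 CPM and the lowest IgG library at 655. Lpin1 was 264.8 to 356 CPM in anti-CD8a and 717 to 1000 in IgG, with no overlap (log2 fold change -1.49 ± 0.26 SE, adjusted p = 0.0003). Acaa2 was 116 to 190.5 CPM in anti-CD8a and 45.2 to 82.6 in IgG, again with no overlap (log2 fold change 1.12 ± 0.20 SE, adjusted p = 0.000357).

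Acadm, the medium-chain dehydrogenase, had 175, 201, 233 and 239 CPM in IgG, 204, 219 and 178 in anti-PD-L1, 299, 378 and 281 in anti-CD8a, and 217, 240.4, 229, 184 and 185 in control. All anti-CD8a libraries were above all IgG libraries in CPM (log2 fold change 0.59 ± 0.16 SE, adjusted p = 0.00617). In TPM the ranges overlapped, at 131 to 194 in IgG and 163 to 210 in anti-CD8a. The Acadm call was lost on log2 TPM (limma adjusted p = 0.323). Without IgG 3 and IgG 4 the counts became 11 higher and 6 lower (2281 and 3005 over all genes), and the median log2 fold change of the 41 became 0.19. As the pair was left out for its high values and anti-CD8a 2 was kept, a shift toward anti-CD8a was set by that choice. Fabp3, Plin2, Hadhb, Eci1, Decr1, Etfa and Etfb were then called higher in anti-CD8a, and Cd36, Acsf2, Plin5, Acot1 and Acot2 were no longer called lower. Under upper-quartile scaling the counts of the 41 were 7 and 9 (4629 and 2551 over all genes), and on log2 TPM 2 and 12 (1901 and 3888 over all genes). Leaving out single libraries ended the calls of Acads (IgG 1, IgG 2 or anti-CD8a 2), Cd36 (IgG 3, anti-CD8a 1 or anti-CD8a 3) and Plin5 (IgG 3, IgG 4 or any anti-CD8a library). Plin4, Pnpla2, Lpin1, Mlycd, Echs1, Eci2, Acaa2 and Acot13 kept their calls under every alternative run. Fibroblast markers (4 of 6) and macrophage markers (6 of 9) were also called higher in anti-CD8a than in IgG, and 1 macrophage marker was called lower (log2 fold change -3.23). Fat cell markers were below 0 in 5 of 6 (median log2 fold change -1.26, none called). The part of these markers was not tested.

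**Figure D5:**
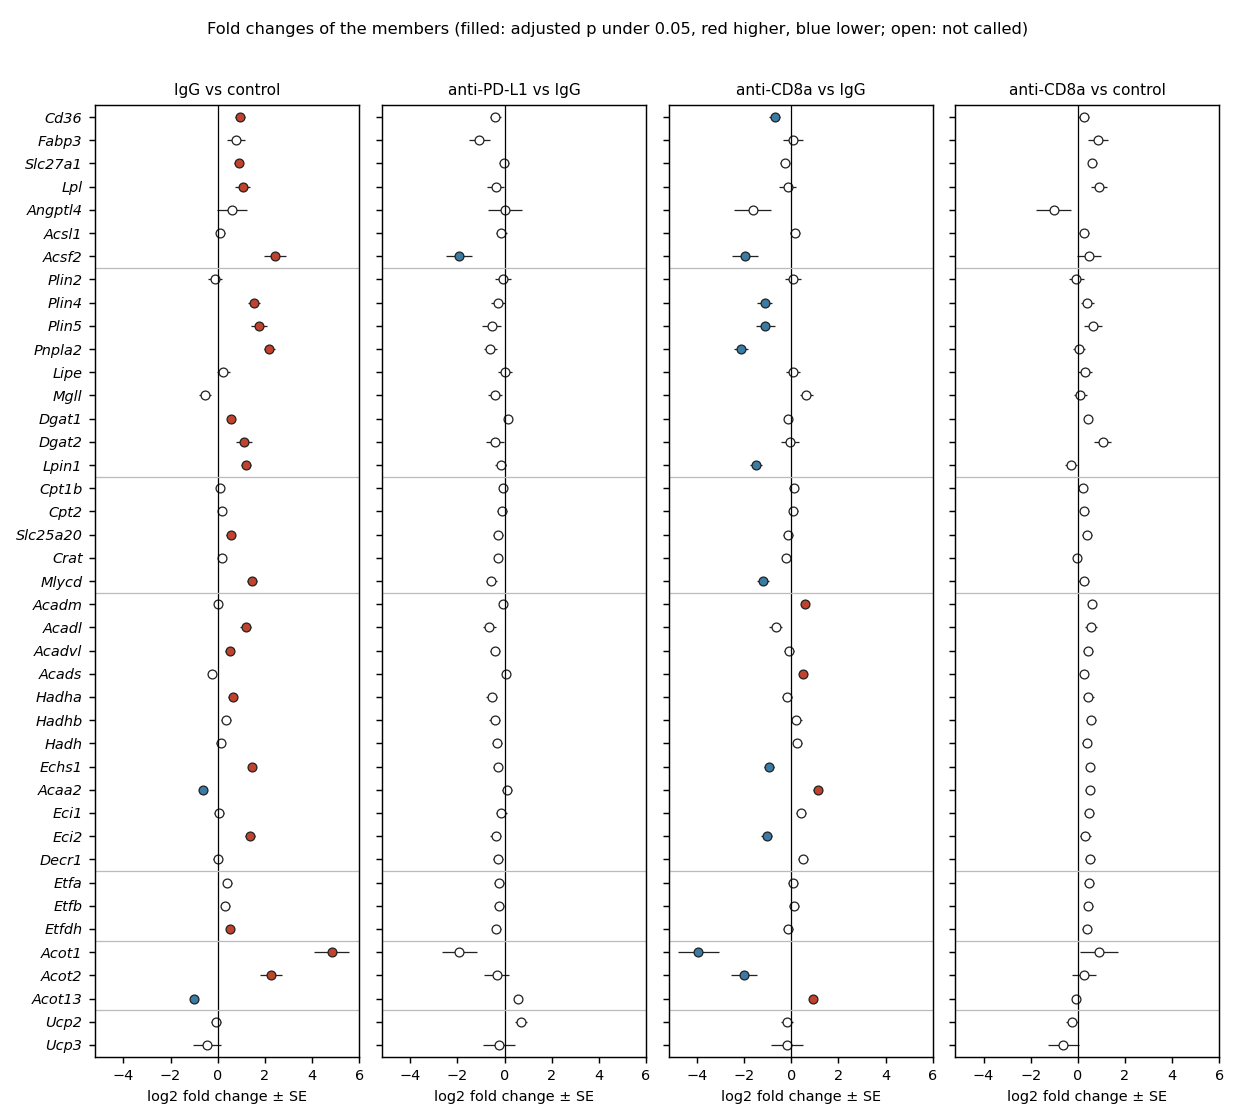
Log2 fold change (point) and SE (bar) of the 41 members, by role from uptake at the top to uncoupling at the bottom, in 4 comparisons; filled points have an edgeR adjusted p under 0.05, red for higher and blue for lower in the group named first. IgG against control has 22 filled points, anti-PD-L1 against IgG 1, anti-CD8a against IgG 15 and anti-CD8a against control 0.

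Anti-CD8a against control sets tumour-bearing anti-CD8a muscle beside muscle without tumour or antibody. No member was called by edgeR, against 0.00696% of all genes in each direction (1 of 14372 each), 13 of the 41 (31.7%) had an unadjusted p under 0.05, as had 7.72% of all genes, and DESeq2 called 1, Acadm. The log2 fold change was above 0 in 34 of the 41 with a median of 0.39, against 0.01 over all genes. All 12 beta oxidation genes had positive values, from 0.26 to 0.60, the largest in Acadm (log2 fold change 0.60 ± 0.15 SE, adjusted p = 0.242), with all 3 anti-CD8a libraries above all control libraries. The droplet genes that separated IgG from control gave 0.05 for Pnpla2, 0.39 for Plin4, 0.65 for Plin5 and -0.29 for Lpin1, none of them called. Slow fibre markers had a median log2 fold change of 2.14 in the same comparison with 0 of 6 called, and their part was not tested. In simulated data of this design, 40% of genes changed 2-fold were recovered, so differences of that size could be missed.

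Anti-PD-L1 against IgG asks what checkpoint antibody changed among tumour-bearing muscles. Only Acsf2 was called, lower in anti-PD-L1 by 1.94 ± 0.54 (log2 ± SE, edgeR adjusted p = 0.0478), at 1.94 to 2.83 CPM in anti-PD-L1 and 3.31 to 23.3 in IgG, and 11 of 16 alternatives lost it, among them leaving out IgG 1, 3 or 4 or anti-PD-L1 1 or 3. That is 0 higher and 1 lower of 41, against 3.96% and 1.54% of all genes tested. The log2 fold change was below 0 in 34 of 41, with a median of -0.28 against 0.01 over all genes, but without IgG 3 and IgG 4 it was below 0 in 15 of 41 with a median of 0.17. An unadjusted p under 0.05 was found in 9 of 41 (22%), against 26.9% of all genes. Fabp3 had a log2 fold change of -1.07 (edgeR adjusted p = 0.143) and Acot1 of -1.91 (0.122). For both genes anti-PD-L1 overlapped IgG 1 and 2 and lay under IgG 3 and 4. Without IgG 2 the count was 1 higher and 5 lower, without anti-PD-L1 2 it was 1 and 2, and without both 1 and 8. Calls over all genes rose in the same refits, from 569 higher and 222 lower with all libraries. They were 1451 and 1153 without IgG 2, 1424 and 1288 without anti-PD-L1 2, and 2230 and 1985 without both. Macrophage markers were called higher in anti-PD-L1 in 8 of 9 cases, with sums of 199 to 627 CPM in anti-PD-L1 and 68.4 to 105 in IgG, and fibroblast markers in 4 of 6. Slow fibre markers were below 0 in 6 of 6 (median log2 fold change -1.49, none called and none with an unadjusted p under 0.05), and the part of these markers was not tested.

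Anti-PD-L1 against control gave 11 higher and 1 lower of 41, against 20.8% and 13.9% of all genes. The higher genes were Slc27a1, Plin4, Plin5, Pnpla2, Dgat1, Lpin1, Mlycd, Echs1, Eci2, Acot1 and Acot2, and the lower one was Mgll. Of the 9 droplet genes 5 were called higher, led by Pnpla2 (log2 fold change 1.58 ± 0.26 SE, adjusted p = 0.000392) and Plin4 (log2 fold change 1.25 ± 0.28 SE, adjusted p = 0.00325). Acot1 differed by log2 fold change 2.92 ± 0.75 SE, adjusted p = 0.00765, with 5.62 to 20.3 CPM in anti-PD-L1 and 0.757 to 2.53 in control and no overlap. Mgll, which frees the last fatty acid from monoglyceride, had 19.0, 44.0, 48.0 and 38.2 CPM in IgG, 16.4, 35.2 and 33.0 in anti-PD-L1, 50.5, 68.6 and 55.3 in anti-CD8a, and 45.9, 62.7, 52.6, 46.7 and 61.3 in control. All anti-PD-L1 libraries were below all control libraries (log2 fold change -0.93 ± 0.28 SE, adjusted p = 0.0165), and the call was lost without anti-PD-L1 1. Without anti-PD-L1 2 the count higher fell to 7, and that over all genes fell from 2989 to 1879. Acot1, Acot2, Mlycd and Plin5 were then no longer called. On log2 TPM, which moved the median of all genes by 0.34, the counts were 21 higher and 0 lower (5211 and 748 over all genes). Under upper-quartile scaling the counts were 11 and 3 (2134 and 2661 over all genes). Fat cell markers were called higher in anti-PD-L1 than in control in 4 of 6 cases, with summed levels of 113, 531 and 258 CPM in anti-PD-L1 and 160 to 225 in control. Macrophage markers were called higher in 6 of 9 cases, and the part of both lists was not tested. Slc27a1, Plin4, Pnpla2, Dgat1, Lpin1, Echs1 and Eci2 kept their calls under every alternative run.

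Anti-PD-L1 against anti-CD8a compares the antibodies directly. Pnpla2, Lpin1, Echs1 and Ucp2 were higher and Mgll, Acadm, Acaa2 and Decr1 lower in anti-PD-L1, so 4 and 4 of 41, against 12.1% and 7.64% of all genes. Pnpla2 differed by log2 fold change 1.53 ± 0.30 SE, adjusted p = 0.00378 and Lpin1 by log2 fold change 1.33 ± 0.27 SE, adjusted p = 0.00462. Acaa2 lay between 65.2 and 79.7 CPM for anti-PD-L1, and between 116 and 190.5 for anti-CD8a (log2 fold change -1.01 ± 0.21 SE, adjusted p = 0.00604). Ucp2, known from macrophages among other cells, had 29.0, 30.7 and 31.1 CPM in anti-PD-L1 and 11.1, 15.9 and 22.2 in anti-CD8a (log2 fold change 0.88 ± 0.27 SE, adjusted p = 0.0339). In the same comparison 7 of 9 macrophage markers were called higher. The 9 summed to 627, 199 and 312 CPM in anti-PD-L1 1 to 3 and to 73.0, 110 and 239 in anti-CD8a 1 to 3. Slow fibre markers were below 0 in 6 of 6 (median log2 fold change -1.86, none called, 2 with an unadjusted p under 0.05), fat cell markers were above 0 in 5 of 6 (median 2.60, none called, 4 with an unadjusted p under 0.05), and the part of these markers was not tested. Pnpla2, Lpin1 and Acaa2 kept their calls under every alternative run, and the other 5 lost theirs under at least 1. Single libraries ended the calls of Acadm (anti-CD8a 2), Mgll (anti-PD-L1 1 or anti-CD8a 2), Decr1 (anti-PD-L1 1 or 2, anti-CD8a 1 or 2), Echs1 (all but anti-PD-L1 3) and Ucp2 (all but anti-CD8a 3). With library totals as the only scaling the counts were 8 higher and 2 lower, on log2 TPM 8 and 1, and under upper-quartile scaling 2 and 6. Over all genes the same settings gave 2754 and 612, 3607 and 415, and 1232 and 1502.

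Other genes of the pathway were counted in lists. The shares over all genes tested, to set beside these counts, were 30.2% higher and 28.4% lower in IgG against control. They were 23.2% and 24.8% in anti-CD8a against IgG, and 3.96% and 1.54% in anti-PD-L1 against IgG. Among 19 regulators, 10 were higher and 4 lower in IgG than in control. The receptor genes Ppara and Ppard were not called (0.01 and 0.35, log2), nor was Pdk4, a PPAR target that restrains glucose oxidation (0.70). Ppargc1a, the coactivator PGC-1 alpha that drives mitochondrial genes, fell with 41.4, 28.2, 41.5 and 17.7 CPM in IgG, 26.9, 23.0 and 17.5 in anti-PD-L1, 75.4, 95.7 and 53.7 in anti-CD8a, and 35.9, 91.3, 301, 26.6 and 40.1 in control. The IgG and anti-PD-L1 ranges overlapped control, where control 3 was far above the rest (log2 fold change -1.62 ± 0.58 SE, adjusted p = 0.0243). The regulators that moved most were Rxrg, a retinoid X receptor, lower by 2.17 ± 0.26 (log2, SE), and Foxo1 and Klf15, transcription factors of the fasting response, higher by 2.06 ± 0.49 (log2, SE) and 2.01 ± 0.35 (log2, SE). Foxo1 had 345, 209, 149 and 152 CPM in IgG, 116, 221 and 55.4 in anti-PD-L1, 71.5, 61.1 and 90.4 in anti-CD8a, and 23.9, 73.2, 114, 23.2 and 21.8 in control. All IgG libraries lay above all control libraries. Between anti-CD8a and IgG, 3 regulators were higher and 9 lower, with Rxrg at 1.83, Klf15 at -1.83 and Foxo3 at -1.70, while Ppara (-0.50), Ppard (-0.53), Ppargc1a (1.22) and Pdk4 (-1.38) were not called. In anti-PD-L1 against IgG, 1 of 19 was called, the corepressor gene Ncor1, lower by 0.71 ± 0.15 (log2, SE), and Ppara, Ppard, Ppargc1a and Pdk4 had -0.39, -0.09, -0.52 and 0.08.

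Malonyl-CoA genes gave large differences beside Mlycd. Acaca and Acacb, the acetyl-CoA carboxylases that make malonyl-CoA, rose in IgG against control by 1.86 ± 0.22 (log2, SE) and 1.53 ± 0.17 (log2, SE). Acacb, the muscle form at the outer mitochondrial membrane, had 798, 479, 729.7 and 684 CPM in IgG, 394, 536 and 406 in anti-PD-L1, 213, 250.4 and 276 in anti-CD8a, and 207, 284.5, 268, 212 and 195 in control. No IgG or anti-PD-L1 library overlapped control. Both were lower in anti-CD8a than in IgG (-1.86 and -1.45), and Acaca in anti-PD-L1 than in IgG (-1.39). Of 7 tested genes in this list, 2 were higher and 4 lower in IgG against control (30.2% and 28.4% of all genes), with the brain form Cpt1c at -1.59. In anti-CD8a against IgG 2 were higher and 2 lower (23.2% and 24.8% of all genes), with Cpt1c at 1.35.

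Of 17 other uptake and activation genes tested, 5 were higher and 3 lower in IgG against control, beside 30.2% and 28.4% of all genes. Acss1, the mitochondrial acetyl-CoA synthetase, and Acsl6, a long-chain acyl-CoA synthetase best known from brain, rose by 2.90 ± 0.24 (log2, SE) and 2.75 ± 0.26 (log2, SE). Acss1 had 189, 194, 169 and 299 CPM in IgG, 148, 260.2 and 159 in anti-PD-L1, 43.2, 55.0 and 55.3 in anti-CD8a, and 25.3, 32.2, 43.1, 21.1 and 21.4 in control. All IgG and anti-PD-L1 libraries were above all others. Ffar4, which encodes a cell surface sensor of long-chain fatty acids, had 236 counts in all over the IgG libraries and 2 over the control libraries, a ratio of levels of 162 with an exact 95% interval of 44.3 to 1345 for counting error only, and IgG 2 was at 0.120 CPM, below the level of 3 counts. In anti-CD8a against IgG, 3 were higher and 4 lower, with Ffar4 at 4 counts against 236, Acsl6 at -2.69 and Acss1 at -2.06. In anti-PD-L1 against IgG, 2 were lower, namely Ffar4 with 29 counts against 236 and Acsl6 (-1.32).

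Of 20 other droplet and triglyceride genes tested, 4 were higher and 5 lower in IgG against control, beside 30.2% and 28.4% of all genes. Cidea, a droplet fusion protein gene, was at 2.15, Lpin2, a second lipin, at 1.79, and Abhd6, a monoglyceride lipase, also at 1.79. Fitm1, a droplet-forming protein gene of muscle, was lower by 1.60 ± 0.18 (log2, SE). In anti-CD8a against IgG, 4 were higher and 2 lower, with Abhd6 at -1.88, Lpin2 at -1.74 and Fitm1 at 1.42, and in anti-PD-L1 against IgG none of the 20 was called, with 4 at an unadjusted p under 0.05.

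Among peroxisomal oxidation genes more were lower than higher in IgG. In IgG against control, 3 of 13 were higher and 8 lower (30.2% and 28.4% of all genes), with the very long-chain transporter gene Abcd2 at -2.92 and the reductase Decr2 at -1.19. Abcd2 had 3.97, 11.6, 3.72 and 2.93 CPM in IgG, 15.9, 9.17 and 21.99 in anti-PD-L1, 46.9, 41.6 and 31.7 in anti-CD8a, and 46.8, 41.03, 39.3, 44.8 and 37.7 in control. All IgG and anti-PD-L1 libraries were below all others. Anti-CD8a against IgG gave 8 higher and 1 lower, with Abcd2 at 2.85, Decr2 at 1.19 and Hacl1 at 1.08, and in anti-PD-L1 against IgG 1 was higher, Abcd2 (1.497).

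Of 17 other mitochondrial oxidation genes tested, 3 were higher and 5 lower in IgG against control, beside 30.2% and 28.4% of all genes. The largest change was in Oxct1, the enzyme that lets muscle use ketone bodies, at -1.497, with Echdc1 at -1.02 and the branched-chain dehydrogenase Acadsb at 1.02. In anti-CD8a against IgG, 4 were higher and 2 lower, with Oxct1 at 1.72, Echdc1 at 1.17 and Echdc2 at 0.89, and in anti-PD-L1 against IgG Echdc1 alone was called (0.80). Of 9 other thioesterase and uncoupling genes tested, 3 were higher and 5 lower in IgG against control, beside the same shares of all genes. Acot4, the peroxisomal neighbour of Acot1, was at 4.10 but no more than 4.03 CPM, Them4, a mitochondrial thioesterase, at -1.49, and Acot8, a peroxisomal one, at -1.096. Anti-CD8a against IgG gave 5 higher and 1, Acot4, lower (-2.96), with Them4 at 1.20 and Acot11 at 1.14, and in anti-PD-L1 against IgG Them4 alone was called (0.88).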

How the data were processed

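RNA-seq of 15 tibialis anterior libraries in 4 groups was analysed. Per the submitters' processing notes the authors trimmed reads with Trim Galore, aligned them with STAR 2.7.9a and quantified genes with RSEM 1.3.3; which genome build and annotation they used is not given in the sources used here. The labels name a directional library kit, and use of strand in counting is not given. The deposited files hold, per gene, the authors' expected counts and TPM values, and the authors' TPM were used as deposited for levels between genes and for 1 alternative, log2(TPM + 0.5) with limma. Expected counts were rounded to whole numbers. Gene identifiers were matched to symbols with the tables supplied (52083 of 55416 matched), and 1 gene of the wider lists, Tmlhe, was not matched. Between 19.8% and 22.8% of the non-zero expected counts of a library, in the deposited files, were not whole.

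One edgeR model (version 4.0.16, R 4.3.3) over all 4 groups used TMM, filterByExpr by group (14372 genes left, all 41 members among them), quasi-likelihood tests on 11 residual degrees of freedom, and adjustment after Benjamini and Hochberg in each of 6 comparisons; all adjusted p-values are from this fit unless another tool is named. A standard error is the absolute log2 fold change over the square root of F. A count of 0 allows up to 0.129 to 0.189 CPM (3 counts); floors and count intervals cover counting error only. Libraries of a group differed by more than counting noise, with a chi-square of at least 16.4 per gene, so none was taken as a repeat. The labels do not pair libraries by replicate number, and 3 of 19 same-numbered pairs had a correlation of deviations over 0.1. Comparisons were run unpaired, and whether same-numbered libraries shared a batch is not known. On simulated counts for the 14372 genes, with 200 changed 2-fold, the fit recovered 63% for IgG against control, 33.5% for anti-CD8a against IgG, 41% for anti-PD-L1 against IgG, 40% for either of the other groups against control and 34% for anti-PD-L1 against anti-CD8a. In the data far more than 200 genes were called in most comparisons, such as 4335 higher and 4075 lower in IgG against control. The rates therefore describe the simulated setting and need not hold for the data.

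The members, their roles and the lists of other pathway and marker genes were chosen with earlier results of these data known. All members are reported; of each other list, up to 3 called genes of largest change were named in the comparisons with IgG and in IgG against control, with Ppara, Ppard, Ppargc1a and Pdk4 always. The value of 1 gene that this rule names is not reported here. Alternatives were upper-quartile scaling, library totals only, DESeq2 1.42.0, no filter on low counts, only the groups compared, a replicate block, limma 3.58.1 on log2 TPM, leaving out IgG 2 with anti-PD-L1 2, leaving out each library, and, chosen after seeing the data, leaving out IgG 3 with IgG 4. Of the 41 members, 32 were in the RefSeq promoter table (GRCm38.p6). Open reading frames were read from the longest protein-coding transcript of a reference annotation.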

Additional observations from a re-analysis of the deposited data

How the results depend on the processing

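Counts of called members are given as higher and lower. In IgG against control (20 and 2), upper-quartile scaling gave 4 lower, log2 TPM 1 lower and leaving out IgG 3 with IgG 4 gave 5 lower, and 14 of the 22 calls held in every alternative run, which were Cd36, Slc27a1, Acsf2, Plin4, Plin5, Pnpla2, Lpin1, Mlycd, Acadl, Echs1, Eci2, Acot1, Acot2 and Acot13. Decr1 turned from 0.00 to -0.51 without IgG 3 and IgG 4. In anti-PD-L1 against IgG (0 and 1), the count higher was 1 under upper-quartile scaling, DESeq2, no filter, log2 TPM or without IgG 2 and anti-PD-L1 2, and 2 with library totals only. The count lower was 0 under upper-quartile scaling, library totals only, the 2 groups alone, the replicate block, log2 TPM or without IgG 3 and IgG 4, 2 with no filter, and 8 without IgG 2 and anti-PD-L1 2. In anti-CD8a against IgG (4 and 11), the count higher was 7 under upper-quartile scaling, 2 on log2 TPM and 11 without IgG 3 and IgG 4, where the count lower was 6. In anti-PD-L1 against control (11 and 1), log2 TPM gave 21 and 0, and the count lower was 3 under upper-quartile scaling, DESeq2 or the 2 groups alone and 2 without IgG 2 and anti-PD-L1 2. In anti-CD8a against control (0 and 0), DESeq2 gave 1 higher. In anti-PD-L1 against anti-CD8a (4 and 4), the count higher was 2 under upper-quartile scaling or without IgG 2 and anti-PD-L1 2, 8 with library totals only or on log2 TPM and 9 with no filter, and the count lower was 2 with library totals only and 1 on log2 TPM. Calls over all genes also moved with the setting. In anti-PD-L1 against IgG they ran from 0 without IgG 3 and IgG 4 to 4215 without IgG 2 and anti-PD-L1 2. The causes were not tested. Leaving out 1 library gave 15 to 23 higher and 2 to 3 lower in IgG against control, 0 to 1 and 0 to 5 in anti-PD-L1 against IgG, 3 to 6 and 9 to 12 in anti-CD8a against IgG, 7 to 13 and 0 to 2 in anti-PD-L1 against control, 0 and 0 in anti-CD8a against control, and 2 to 4 and 1 to 5 in anti-PD-L1 against anti-CD8a. The labels name no animal or batch shared by replicate number, and whether any was shared is not known. Of 19 pairs, 4 correlated best with their own number, and the replicate block gave 17 and 3 members in IgG against control. Upper-quartile scaling moved the median of all genes by -0.25, 0.11, 0.23, -0.14, -0.02 and -0.12 in the comparisons in the order given here, and log2 TPM by 0.20, 0.14, -0.16, 0.34, 0.04 and 0.29. Of 3895 single-gene values under alternatives, 3409 kept direction and side of the threshold, 118 passed it newly, 101 no longer passed, and 1, that of Decr1, changed sign with a call. A further 266 changed sign without a call in either fit, and leaving out IgG 3 with IgG 4 changed 41 signs in all. The 3 to 5 libraries of a group limit the precision. In 0 of 82 groups of values, which do not cover every member in every group, was a library far enough from the others to be singled out. With so few values in a group the search can miss a single library. Acsf2 in IgG 4 was not singled out, at 23.3 CPM against 3.31 to 6.81 in the other IgG libraries. Such a search can miss 2 libraries that stand apart together, as IgG 3 and IgG 4 did in these genes.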
